A study of Arabidopsis thaliana with 12 samples.

Results

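Whole 7-day-old Arabidopsis thaliana seedlings of the wild type Col-0 were compared with seedlings of the tpst mutant, neither of them given peptide. Of the 12 RNA-seq libraries in the count table, 6 belonged to these groups, 3 from Col-0 and 3 from tpst. Each library was placed in its group by its labels. The other 6 libraries came from tpst seedlings kept for 5 h with 100 nM or 1 µM phytosulfokine (PSK), and they entered the fit only to share its estimate of the spread between replicates. The tpst mutant is 1 T-DNA insertion line in the Col-0 background that carries the allele tpst-1, so whatever else differs between that line and Col-0 cannot be told apart from the loss of TPST. Each library was made from pooled seedlings, and both groups are labelled as untreated, at 0 h. The study's methods describe a water mock for controls, so the hour of harvest is not settled by these sources. All groups grew in liquid medium with sucrose.

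TYROSYLPROTEIN SULFOTRANSFERASE (TPST) is a Golgi enzyme that moves a sulfate group from PAPS onto tyrosines of secreted peptide precursors. The peptides that need it are the PSK peptides, the PSY peptides, the ROOT MERISTEM GROWTH FACTORS (RGF) and the CASPARIAN STRIP INTEGRITY FACTORS (CIF). They are read by leucine-rich repeat receptor kinases, and in roots they are known for sustaining cell elongation, the stem cell niche and the sealed endodermis.

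Values are CPM, a gene's counts scaled to library size after correction by TMM factors, and differences are log2 of tpst minus Col-0, with their standard error (SE). A gene was called when its adjusted p from edgeR's quasi-likelihood test was under 0.05 over the 20506 genes tested, of 32833 in the table. Library totals ranged from 20133278 to 24835416 counts. The first principal component of the 6 libraries held 61.3% of the variance and separated the genotypes, and the second held 14% and set Col-0 replicate 3 apart from the other 2. The chi-square per degree of freedom was 3.43 between Col-0 replicates 1 and 2, against 14.7 and 16.1 for the pairs with replicate 3, and 3.63 to 3.97 among tpst libraries. Without Col-0 replicate 3 there were 2978 genes lower and 2822 higher in tpst, against 2999 and 2732 with it. The labels call the replicates biological, and the tests measure the spread between these pooled samples. Because whole seedlings were sampled, fewer cells of a type and less RNA per cell cannot be told apart, nor can a smaller share of root in the seedling.

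Before the levels are given, the coding DNA around the sulfated tyrosines shows what the enzyme acts on in 6 of the peptide genes that were called. Capitals mark the codons of the mature PSK peptide, whose tyrosines are the ones sulfated, and in the other peptides the codons of the aspartate and tyrosine at the sulfation site. The windows were read 5′ to 3′ on the coding strand of the RefSeq TAIR10.1 genome.
PSK4 (AT3G49780), chr3:18466210-18466254, plus strand: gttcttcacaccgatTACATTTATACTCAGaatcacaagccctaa
PSK5 (AT5G65870), chr5:26352011-26352055, plus strand: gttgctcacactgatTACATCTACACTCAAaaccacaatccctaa
PSY3 (AT2G29995), chr2:12797176-12797220, minus strand: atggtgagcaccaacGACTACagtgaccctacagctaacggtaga
RGF7 (AT3G02240), chr3:419022-419066, plus strand: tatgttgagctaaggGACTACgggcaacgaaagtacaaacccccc
RGF9 (AT5G64770), chr5:25897696-25897740, minus strand: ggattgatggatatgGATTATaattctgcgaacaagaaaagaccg
CIF2 (AT4G34600), chr4:16529878-16529922, plus strand: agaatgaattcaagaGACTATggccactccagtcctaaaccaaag

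TPST itself (AT1G08030, TAIR10 chr1:2489409-2493327, minus strand, protein coding) was read at 16.93, 17.03 and 17.28 CPM in Col-0 and at 6.70, 7.61 and 8.14 CPM in tpst. The genotypes did not overlap, as was so for 39.8% of all genes tested, and the log2 difference was -1.19 (SE 0.13, adjusted p = 4.84e-08). Reads on the gene were fewer but present, 493 counts in the 3 tpst libraries together against 1236 in Col-0. A count per gene does not show on which side of the insertion the remaining reads lie. Of the 240 other genes tested within 500 kb of the start of TPST, 31.7% were called, against 27.9% of all genes tested.

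The enzymes that feed TPST with activated sulfate were mostly higher in the mutant. Of the 11 genes listed for sulfate activation, PAPS transport and tyrosine sulfation, 6 rose, 2 fell and 3 were not called, while over all genes 13.3% were called higher and 14.6% lower. APS1 (AT3G22890), an ATP sulfurylase that makes the first activated form of sulfate, stood at 274, 261 and 216 CPM in Col-0 against 374, 351 and 357 CPM in tpst (log2 0.53, SE 0.06, adjusted p = 1.17e-06). APS3, of the same family, rose from 28.4 ± 1.80 to 47.4 ± 2.25 CPM (mean ± SD, n = 3), and the APS kinases APK1 and APK2, which make PAPS, rose by 0.32 and 0.50 on the log2 scale. SAL1, the phosphatase that clears the by-product of sulfotransferases, rose by 0.40, and the PAPS carrier TAAC by 0.27. APS4 went the other way, from 107 ± 8.07 to 73.5 ± 5.06 CPM, and was the only member besides TPST that fell. APS2, APK3 and APK4 were not called, with log2 differences of 0.11, 0.04 and -0.17.

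Genes for the peptides that TPST sulfates were mostly lower where they were called. Of 20 listed precursor genes 17 were tested, 6 fell, 1 rose and 10 were not called, with a median log2 difference of -0.66 against 0.003 over all genes tested. Without Col-0 replicate 3 the listed PSK3 was also called, so 2 rose, while PSK2 was called lower without tpst replicate 3 and RGF3 without tpst replicate 2. PSK6, RGF1 and RGF6 had too few counts to be tested.
PSK4 (AT3G49780, named PSK3 in the deposited table) encodes a precursor of the growth peptide PSK. It was read at 13.5, 15.4 and 12.03 CPM in Col-0 against 5.64, 5.28 and 4.30 CPM in tpst, with no overlap (log2 -1.42, SE 0.15, adjusted p = 7.96e-08). PSK5, another PSK precursor, went up from 3.42, 4.69 and 4.72 CPM to 7.07, 6.22 and 7.64 CPM (log2 0.70, SE 0.16, adjusted p = 0.00173). The same mature peptide was thus encoded by 1 gene that fell and 1 that rose. PSK1, PSK2 and the gene listed as PSK3 (AT3G44735) were not called, at log2 -0.46, -1.02 and 0.36. PSY3, whose product is a relative of the cell expansion peptide PSY1, stood at 9.54, 10.8 and 7.24 CPM in Col-0 against 4.86, 2.90 and 5.56 CPM in tpst (log2 -1.06, SE 0.20, adjusted p = 1.62e-04), while PSY1 and PSY2 were not called, at 0.05 and 0.21.
Of the root meristem peptides, RGF4 had the largest fall, from 1.85, 2.01 and 2.099 CPM to 0.734, 0.532 and 0.455 CPM (log2 -1.78, SE 0.38, adjusted p = 7.25e-04). RGF7 fell by 1.28 and RGF9 by 0.84 on the log2 scale, and the call of RGF7 was lost without tpst replicate 3. RGF2, RGF3, RGF5 and RGF8 were not called, with means below 2 CPM in both genotypes. CIF2, a peptide that guards the endodermal seal, was read at 15.7, 19.2 and 18.2 CPM in Col-0 against 8.49, 7.89 and 9.21 CPM in tpst (log2 -1.06, SE 0.12, adjusted p = 9.72e-08). Its close relative CIF1 was at 1.97 ± 0.31 and 1.96 ± 0.33 CPM.

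Of 13 receptors and co-receptors, 6 fell, none rose and 7 were not called, and both PSK receptors were among the last. PSKR1 and PSKR2, the PSK receptors, stood at 19.9 ± 3.25 and 20.3 ± 1.16 CPM in Col-0 and at 19.2 ± 1.12 and 20.6 ± 1.16 CPM in tpst. Their log2 differences were -0.04 (SE 0.11) and 0.03 (SE 0.09), neither called. The RGF receptors RCH1 and RCH2 fell, RCH1 from 10.4, 11.9 and 10.1 CPM to 4.08, 5.48 and 4.4 CPM (log2 -1.21, SE 0.18, adjusted p = 7.39e-06). RCH2 went from 32.1, 32.1 and 31.7 CPM to 15.6, 18.4 and 14.5 CPM (log2 -0.98, SE 0.10, adjusted p = 1.34e-08). GSO1, the CIF receptor of the endodermis, fell by 0.77 on the log2 scale and PSY1R by 0.32. The calls of PSY1R, RGI3 (log2 -0.56) and the common co-receptor BAK1 (log2 -0.20) were less stable. PSY1R lost its call without tpst replicate 1, and the call was lost in 6 of 14 alternative analyses for RGI3 and in 9 of 14 for BAK1. GSO2 was not called at -0.94, nor were SKM2, SERK1, SERK2 and SERK4, at -0.13, -0.02, 0.18 and 0.06. GSO2 was called lower with the 6 libraries alone, and SKM2 without Col-0 replicate 3.

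Among 9 genes listed as acting below these peptides or in the same root tissues, 6 fell and 1 rose. PLT1 and PLT2, AP2-type factors that maintain the root stem cells under RGF control, were read at 3.06, 3.33 and 3.37 CPM and at 1.67, 1.62 and 1.35 CPM in Col-0. In tpst PLT1 was at 1.65, 1.43 and 0.910 CPM and PLT2 at 0.642, 0.777 and 0.657 CPM, so the genotypes did not overlap for either gene (log2 -1.28 and -1.14). The call of PLT2 was lost when any of Col-0 replicates 1 and 2 or tpst replicates 1 and 3 was left out. PBL15, a kinase that carries the CIF signal in the endodermis, fell from 8.01, 7.77 and 7.38 CPM to 2.38, 3.31 and 3.29 CPM (log2 -1.36, SE 0.19, adjusted p = 2.79e-06), and RBOHF, the NADPH oxidase of the same pathway, fell by 0.53. UPB1, a bHLH factor that sets the edge of the root meristem, fell by 1.27, a call lost without tpst replicate 3. The plasma membrane proton pumps AHA1 and AHA2, targets of PSK and PSY signalling, moved apart, AHA1 up by 0.21 and AHA2 down by 0.27. The channel CNGC17 and the endodermal factor MYB36 were not called, at -0.20 and -0.50.

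**Figure D1:**
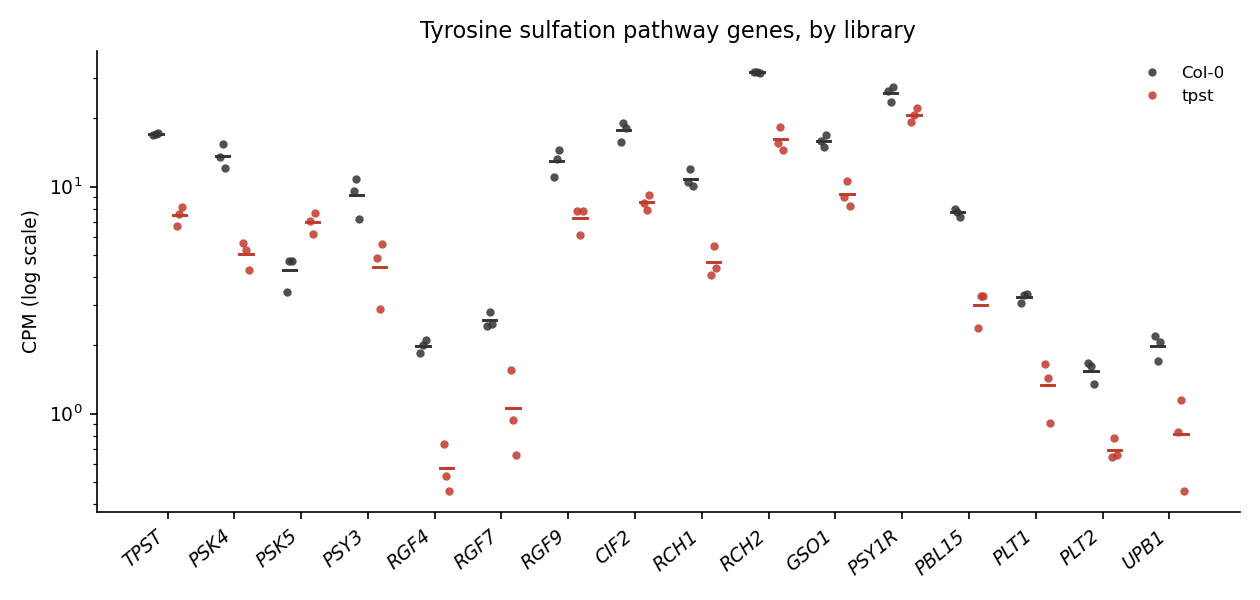
Level in CPM, on a log axis, of TPST and the genes listed with the sulfated peptide pathway that the x axis names, in the 3 Col-0 libraries (black) and the 3 tpst libraries (red), with bars at the group means. Every gene shown except PSK5 is lower in all tpst libraries than in all Col-0 libraries.

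Over all genes the changes were many, and the larger ones were mostly losses. In tpst 2999 genes were lower and 2732 higher, or 14.6% and 13.3% of the genes tested. The counts of every list and family stand beside these shares. At 2-fold or more 1115 were lower and 203 higher, which is 5.44% and 0.99% of the genes tested and 6.43% in all. Among calls with a log2 difference under 0.5 in size, 998 were lower and 2122 higher. Between 1 and 2 the numbers were 877 and 175, between 2 and 3 they were 190 and 21, and at 3 or more they were 48 and 7. The genes that fell had a median level of 13.6 CPM in Col-0 against 7.71 CPM in tpst, and those that rose went from a median of 45.6 to 57.6 CPM. Of the 1115 genes lower by 2-fold or more, 704 had a mean of 1 to 10 CPM over both genotypes, a range that held 6508 of the 20506 genes tested. Among genes between 100 and 1000 CPM, 796 were higher and 183 lower. The median log2 difference of all tested genes was 0.003, where the TMM correction itself places the bulk of genes near 0.

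**Figure D2:**
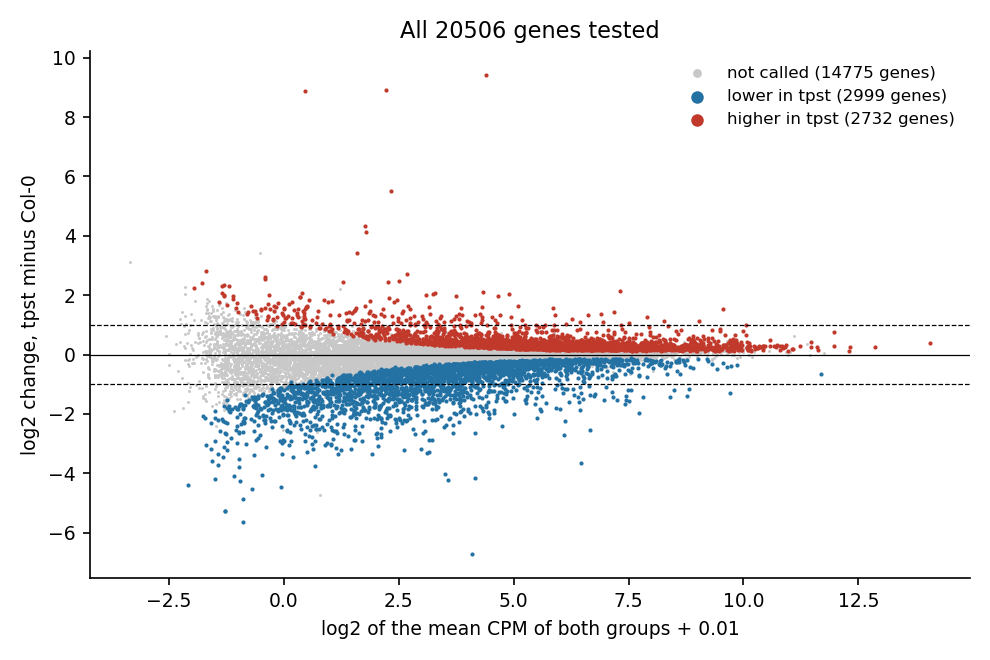
Log2 difference of tpst minus Col-0 against the log2 mean CPM of both genotypes for the 20506 genes tested, with called genes in blue (2999 lower) and red (2732 higher) and dashed lines at 2-fold. The cloud of lower genes reaches further from 0 at low levels, and the higher genes crowd close to 0 at high levels.

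The endodermal barrier genes had the lowest median of all lists examined. The Casparian strip is a lignin band, placed by the CASP proteins, that seals the spaces between endodermal cells. Of its 12 listed genes 9 fell and none rose, with a median log2 difference of -1.45, and 9 fell in each of the 14 alternative analyses. CASP1 stood at 24.5, 21.2 and 17.8 CPM in Col-0 against 5.96, 8.63 and 5.66 CPM in tpst (log2 -1.64, SE 0.16, adjusted p = 2.53e-08). CASP2 fell from 9.29 ± 0.775 to 2.11 ± 0.573 CPM and CASP4 from 5.26 ± 1.61 to 1.71 ± 0.423 CPM. CASP5 was read at 1.76, 1.32 and 2.21 CPM against 0.0917, 0.164 and 0.253 CPM (log2 -3.36, SE 0.49). CASP1, CASP2, CASP4 and CASP5 were each lower in every tpst library than in any Col-0 library, a pattern met in 20.5% of all genes tested. PER64, the peroxidase that polymerises the strip's lignin, fell from 16.1 ± 2.55 to 5.53 ± 1.09 CPM. MYB36, the factor that switches on this set, was not called, at 3.54 ± 0.886 and 2.50 ± 0.221 CPM, and ESB1 was not called at levels below 1 CPM. The endodermal identity factors differed from each other, SHR with a fall of 0.60 on the log2 scale and SCR with -0.10, not called.

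Suberin, the waxy polyester laid down around endodermal cells after the strip, had 12 of 18 tested genes lower and none higher (median log2 -0.91), and 9 were lower without Col-0 replicate 3. MYB41, a factor that can switch on suberin genes, was at 1.12, 1.71 and 1.24 CPM in Col-0 against 0.229, 0.0818 and 0.152 CPM in tpst (log2 -3.11, SE 0.56, adjusted p = 1.15e-04). ABCG6, an exporter of suberin monomers, fell by 1.30, MYB92 by 1.20 and the fatty acyl reductase FAR5 by 1.07 on the log2 scale. ASFT, which attaches ferulate to suberin, went from 42.1, 40.3 and 34.2 CPM to 22.34, 20.04 and 18.31 CPM. The cuticle genes of the shoot, which share much of this chemistry, split evenly, with 4 of 16 lower and 4 higher. CER1, a wax alkane enzyme, fell by 0.80 and CER3, its partner, rose by 0.46.

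Root hair genes were lower in 14 of 17 tested cases with none higher, and their median was -0.83. RSL2 (BHLH85 in the table), a bHLH factor of hair growth, stood at 1.89, 2.35 and 2.06 CPM in Col-0 against 0.505, 0.368 and 0.657 CPM in tpst (log2 -2.05, SE 0.41, adjusted p = 3.56e-04). RHD2, the NADPH oxidase at the growing hair tip, went from 24.8, 20.5 and 20.2 CPM to 9.27, 9.49 and 8.45 CPM (log2 -1.26, SE 0.12, adjusted p = 4.72e-09). COBL9 fell by 1.44, RHD6 by 0.98 and LRX1 by 0.94 on the log2 scale. RSL4, ADF8 and PRP1 were not called, at -0.70, -0.40 and -0.21. In the list for epidermal patterning, GL2 and WER, which keep epidermal cells hairless, fell by 0.79 and 1.13, TRY rose from 0.451 ± 0.21 to 1.26 ± 0.352 CPM, and 5 of 8 genes were not called. Without Col-0 replicate 3, 4 genes of this list were lower. The call of TRY was lost without Col-0 replicate 1 and without tpst replicate 3.

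Some of these hair genes carry a known promoter sign, the root hair element, which binds factors of the RSL2 family. A search of both strands of the 250 bases before each gene start found it in 4 of the 14 root hair genes that fell (28.6%) and in 0.803% of the 19930 protein-coding genes tested. The list was made of known hair genes, and the share among its genes that were not called was not computed. The 28.6% can therefore not be read as a trait of genes that fell. Over all protein-coding genes tested, the element was present before 1.61% of the genes that fell and 0.297% of those that rose. The matches are shown in capitals within 60 bases of the RefSeq TAIR10.1 plus strand, with those of PRP3 and LRX1 found on the opposite strand. A match is a description of the sequence and does not show binding.
EXPA7 (AT1G12560), chr1:4276405-4276464, plus strand, wall-loosening expansin of hairs: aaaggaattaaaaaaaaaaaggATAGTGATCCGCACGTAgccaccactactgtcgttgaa
EXPA18 (AT1G62980), chr1:23331501-23331560, plus strand, its relative: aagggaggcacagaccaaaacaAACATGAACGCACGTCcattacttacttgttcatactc
PRP3 (AT3G62680), chr3:23182533-23182592, plus strand, proline-rich wall protein of hairs: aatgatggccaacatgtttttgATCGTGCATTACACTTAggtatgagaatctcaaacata
LRX1 (AT1G12040), chr1:4069877-4069936, plus strand, leucine-rich repeat extensin of hairs: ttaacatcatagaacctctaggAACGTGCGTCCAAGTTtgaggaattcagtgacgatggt
These 4 genes fell by 0.83, 0.61, 0.81 and 0.94 on the log2 scale.

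Lists for xylem, pericycle, stele and phloem, read here in whole seedlings, were mixed. Of 16 xylem genes 8 fell and none rose (median -0.49), while 14.6% of all genes tested were lower and 13.3% higher. The secondary wall cellulose synthases CESA4, CESA7 and CESA8 fell by 0.44, 0.47 and 0.49, the protease XCP2 of dying vessels by 0.51 and the lignin laccase LAC17 by 0.84 on the log2 scale. VND6 and VND7, the master factors of vessel identity, were not called, at -0.05 and -0.13. In the pericycle and stele list 6 of 12 genes fell and 2 rose, or 50.0% and 16.7%, the latter near the share of all genes. NRT1.5 (NPF7.3 in the table), which loads nitrate into the xylem, was at 118 ± 6.7 CPM in Col-0 against 55.1 ± 0.856 CPM in tpst (log2 -1.09, SE 0.06, adjusted p = 2.41e-13). The potassium channel SKOR fell by 1.36, the sodium carrier HKT1 by 1.401 and the phosphate exporter PHO1 by 0.64, while the sulfate carrier SULTR2;1 rose from 34.1 ± 5.57 to 65.0 ± 1.67 CPM. Phloem genes gave 1 lower and 2 higher of 11, a share close to the 27.9% of all genes. The lower count was 0 without Col-0 replicate 2, tpst replicate 1 or tpst replicate 2 and 2 without Col-0 replicate 1, the higher count was 1 without Col-0 replicate 3 or any tpst replicate, and the call of SUC2 (log2 0.27), the sucrose loader of companion cells, was lost in 9 of 14 alternatives.

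In the root meristem list 7 of 14 genes fell and none rose. BBM, a relative of the PLT factors, fell from 1.66 ± 0.307 to 0.476 ± 0.266 CPM, and JKD and MGP, zinc finger partners of SHR, fell by 1.28 and 1.24 on the log2 scale. WOX5, the marker of the quiescent centre, was not called at 1.35 ± 0.175 and 1.17 ± 0.0948 CPM. The mitotic cyclin CYCB1;1 was not called either, at 13.1 ± 1.29 and 12.6 ± 0.58 CPM, and of 41 cyclins and cyclin-dependent kinases only CYCA2-3 was called, lower by 0.32, a call lost without Col-0 replicate 3, without tpst replicate 1 and without tpst replicate 2. Without Col-0 replicate 2 this family had 2 lower and 1 higher, and without tpst replicate 2 it had 1 higher. None of 7 genes tested for the root cap was called by edgeR, where 2 had an unadjusted p under 0.05, while DESeq2 called 2 lower and edgeR called 1 lower without tpst replicate 1 and without tpst replicate 2. SMB, the identity factor of the root cap, had a log2 difference of -1.15 (SE 0.45, adjusted p = 0.0612).

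Markers of root and of shoot were both present in each genotype. Summed over the tested genes of each list, root hair transcripts ranged from 196.6 to 210.5 CPM in Col-0 against 90.8 to 131 CPM in tpst. Xylem transcripts, which in whole seedlings are not those of the root alone, ranged from 177.5 to 191.7 CPM in Col-0 and from 126 to 139 CPM in tpst. Shoot epidermis and meristem genes summed to 616 to 667 CPM in Col-0 against 661 to 727 CPM in tpst. Of 12 tested 4 rose (33.3%) and 1 fell (8.33%), beside 13.3% and 14.6% of all genes tested. Among these, STM, which maintains the shoot meristem, went from 3.01 ± 0.601 to 5.38 ± 0.523 CPM and the leaf polarity gene YAB3 from 42.0 ± 5.09 to 58.7 ± 0.84 CPM. Guard cell genes gave 4 lower (30.8%) and 1 higher (7.69%) of 13, with the potassium channel KAT1 lower by 0.95. Only 2 were lower when any of Col-0 replicates 2 and 3 and tpst replicates 2 and 3 was left out, and none was higher without Col-0 replicate 1, Col-0 replicate 3 or tpst replicate 3. The part of tissue proportions in the root lists was not tested.

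**Figure D3:**
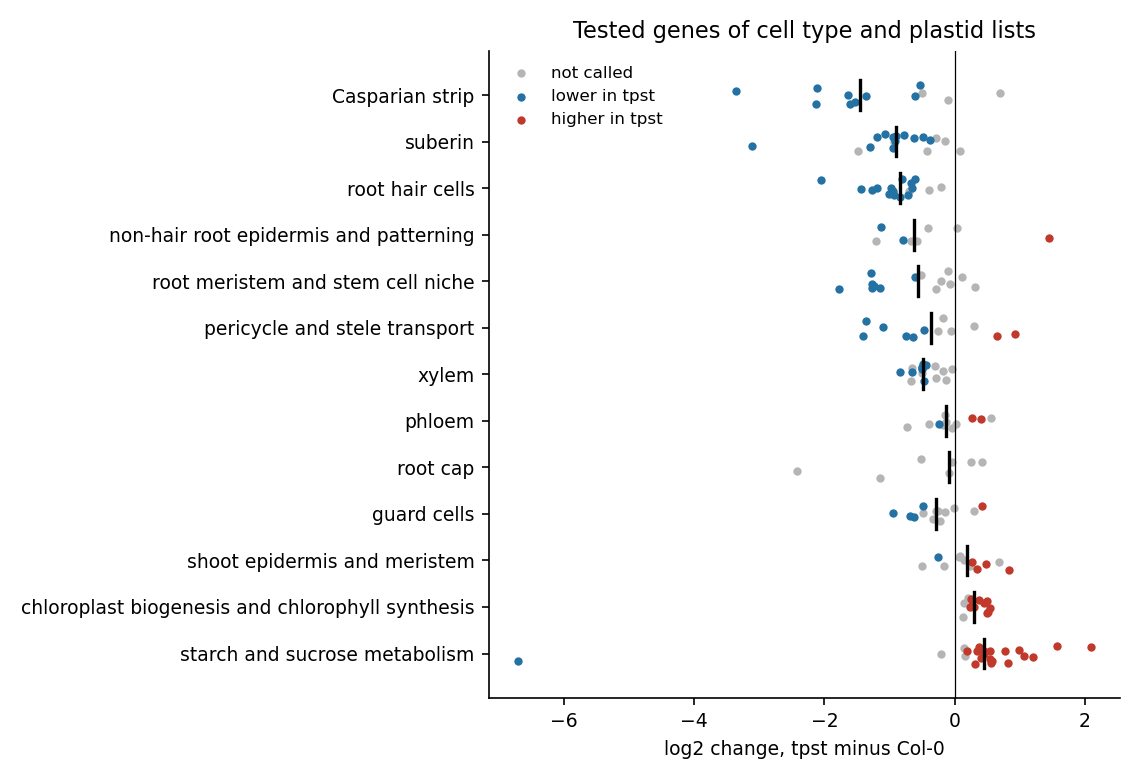
Log2 difference of tpst minus Col-0 for each tested gene of 13 lists (rows), coloured by call, with a black bar at the list's median. The Casparian strip, suberin and root hair rows have medians left of 0 and no gene called higher, the phloem and root cap rows lie on both sides of 0, and the chlorophyll and starch rows lie right of 0 apart from SUS4 at -0.21 and QQS at -6.71.

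Families of wall and lignin enzymes were lower in large shares. Class III peroxidases, secreted enzymes that cross-link wall phenolics, had 36 of 59 tested members lower and 6 higher (median -0.68). PER4 fell from 7.34 ± 1.07 to 1.33 ± 0.165 CPM, PER27 from 115 ± 12.2 to 24.2 ± 7.94 CPM, and PER32 from 655, 629 and 620 CPM to 244, 265 and 222 CPM (log2 -1.38, SE 0.06, adjusted p = 1.48e-15). Laccases, which oxidise lignin monomers, had 11 of 14 lower and none higher. LAC16 fell by 2.58 and LAC7 by 1.62 on the log2 scale. Of 17 genes that make the monomers 10 fell and none rose, from PAL4 at -1.61 to HCT at -0.16, with a median of -0.24 beside -0.80 for the laccases. Among structural proteins, EXT3, the extensin scaffold of the wall, was at 1186, 1164 and 1203 CPM in Col-0 against 498, 504 and 446 CPM in tpst (log2 -1.29, SE 0.05, adjusted p = 6.45e-16), and 5 of 7 extensins fell and 1 rose. Arabinogalactan proteins had 15 of 42 lower and 2 higher, or 5 higher without Col-0 replicate 3, and AGP22 fell from 15.8 ± 4.83 to 2.102 ± 0.732 CPM. Expansins gave 8 lower and 4 higher of 25 and the XTH enzymes 10 and 7 of 28, so both directions occurred in each family. Wall-associated kinases, receptors that touch pectin, had 9 of 16 lower and 1 higher, or 2 higher without Col-0 replicate 1 or 3, with WAK4 at 3.29 ± 0.914 CPM in Col-0 against 0.379 ± 0.212 CPM in tpst.

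Several nutrient and water transporter genes fell strongly, while most of their families went both ways. IRT1, the main root iron importer, was read at 188, 176 and 156 CPM in Col-0 against 39.7, 24.4 and 25.5 CPM in tpst (log2 -2.54, SE 0.17, adjusted p = 5.54e-06). Its ZIP and IRT family had 4 of 12 lower and 2 higher, and the higher count was 0 without tpst replicate 3 and 1 without Col-0 replicate 1, Col-0 replicate 2 or tpst replicate 2. PHT1-1, a phosphate importer, went from 128, 124 and 116 CPM to 44.8, 48.3 and 43.4 CPM (log2 -1.43, SE 0.07, adjusted p = 5.63e-15). Of the 3 PHT1 genes tested 2 fell, or 1 without Col-0 replicate 2, tpst replicate 1 or tpst replicate 2, and PHT1-4 rose by 0.31 on the log2 scale, a call lost without tpst replicate 3. Both tested ammonium importers fell, AMT1-3 from 42.0 ± 3.95 to 14.2 ± 2.73 CPM and AMT1-2 from 45.3 to 25.1 CPM. The ABCG family of membrane exporters had 12 of 36 lower and 7 higher, or 33.3% and 19.4% beside 14.6% and 13.3% of all genes, with ABCG37 at 111 ± 13.7 and 36.5 ± 5.14 CPM. Aquaporins gave 12 lower and 6 higher of 26. TIP2-3, a tonoplast channel, fell from 18.8, 17.4 and 10.7 CPM to 1.93, 1.84 and 0.860 CPM, and PIP2-4 at the plasma membrane fell by 2.36. Sulfate carriers went both ways, 3 lower and 6 higher of 12. SULTR1;2, the main uptake carrier, was at 100, 73.6 and 73.5 CPM in Col-0 against 51.7, 42.2 and 41.9 CPM in tpst (log2 -0.86, SE 0.13), while SULTR3;4 rose from 6.34 ± 1.29 to 14.7 ± 1.16 CPM. Nitrate and peptide transporters split 15 lower to 12 higher of 44.

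Hormone genes were called in each pathway examined, but so were 27.9% of all genes tested, 14.6% lower and 13.3% higher. Calls in every pathway therefore do not set hormone genes apart. The share lower was 47.6% for cytokinin, 38.1% for Aux/IAA repressors, 33.3% for gibberellin and 23.5% for ethylene. For abscisic acid it was below the share of all genes. Of 21 tested cytokinin genes 10 fell and none rose (median -0.45). The response regulators ARR5, ARR7, ARR8 and ARR9, which are induced by the hormone, fell by 0.82, 0.39, 0.45 and 0.39, and the synthesis genes IPT5 and IPT7 fell by 1.13 and 1.03 on the log2 scale. CKX4, which degrades cytokinin, went from 11.5 ± 0.63 to 4.58 ± 1.12 CPM, so genes of synthesis, response and removal were all among those that fell. For gibberellin 7 of 21 fell and 3 rose, and the higher count was 0 without tpst replicate 2 and 1 without Col-0 replicate 3, without tpst replicate 3 and with the 6 libraries alone. Among those that fell was GA3OX2, which makes the active hormone and went from 10.5 ± 1.56 to 3.09 ± 0.553 CPM. The auxin side gave 8 lower and 2 higher of 21 Aux/IAA repressors, or 1 higher without Col-0 replicate 3 or any tpst replicate. IAA28 fell by 1.28 on the log2 scale, and PIN2, the auxin exporter of the root epidermis, fell from 43.4, 41.4 and 34.1 CPM to 17.5, 14.6 and 11.3 CPM (log2 -1.45, SE 0.15, adjusted p = 4.01e-06). Abscisic acid genes gave 2 lower and 5 higher of 20, and 3 higher without Col-0 replicate 2 or tpst replicate 2, with COR47, a dehydrin, from 328 ± 32.3 to 121 ± 8.99 CPM and RD22 from 94.4 ± 6.15 to 169 ± 12.9 CPM. Ethylene genes gave 4 lower and 2 higher of 17, with 7 lower without Col-0 replicate 3 and 1 higher when any of the Col-0 replicates or tpst replicate 3 was left out.

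The WRKY, MYB and bHLH families of transcription factors had more lower than higher members, and the ethylene response factors did not. WRKY factors had 20 of 54 lower and 6 higher, MYB factors 22 of 75 lower and 6 higher, and bHLH factors 18 of 69 lower and 5 higher, or 9 higher without Col-0 replicate 3. The higher count of MYB factors was 2 without Col-0 replicate 1 and 3 without Col-0 replicate 2, tpst replicate 2 or tpst replicate 3. WRKY54 fell from 3.39 to 0.751 CPM and MYB61 from 2.84 to 0.679 CPM. Ethylene response factors gave 3 lower and 7 higher of 49, beside 14.6% lower and 13.3% higher over all genes, and their higher count was 3 without Col-0 replicate 1 and 4 without tpst replicate 3. The letters TTGACT or TTGACA, forms of the W-box that WRKY proteins bind, were found on either strand of the 250 bases before 38.6% of the protein-coding genes that fell, 31.1% of those that rose and 33.2% of all those tested. At 2-fold or more the shares were 42.8% and 30.9%.

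Lists and families of the chloroplast, starch and the ribosome had far more higher than lower members. Abundant genes as a class did so too, with 42.9% higher and 9.85% lower between 100 and 1000 CPM. Above 1000 CPM the shares were 77.1% and 1.43%. Whether these lists and families rose more than other genes of their level was not tested. All 10 called genes of 13 tested for chlorophyll synthesis and chloroplast biogenesis rose (median 0.30). CHLH, the porphyrin-binding subunit of magnesium chelatase, rose from 694 ± 57.5 to 976 ± 36 CPM and PORB, the light-dependent reductase, from 509 to 694 CPM. GLK1, a factor that activates such genes, was not called at 0.13, and GLK2 rose by 0.26. Of 19 light-harvesting proteins 13 rose (68.4%) and none fell, and of 27 nuclear photosystem subunits 18 rose (66.7%) and none fell. LHCB4.1 was read at 1415, 1366 and 1053 CPM in Col-0 against 1861, 1783 and 1729 CPM in tpst, and the lowest value was that of Col-0 replicate 3. Light-harvesting transcripts summed to 12970 to 15770 CPM in Col-0 against 16810 to 18340 CPM in tpst. In the photosystem II repair list 12 of 17 genes rose and TLP18.3 alone fell.

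Of 23 starch and sucrose genes 19 rose and 1, QQS, fell (median 0.46), with 2 lower without tpst replicate 2. GBSS1, the granule-bound synthase that makes amylose, went from 28.9 ± 5.3 to 86.5 ± 5.26 CPM (log2 1.58, SE 0.15, adjusted p = 2.72e-05), and APL3, a subunit of the enzyme that makes ADP-glucose, from 46.6 ± 5.49 to 108 ± 6.54 CPM. Genes of starch breakdown rose beside them, the phosphatase SEX4 by 0.99, the debranching enzyme ISA3 by 1.07 and the beta-amylase BAM3 by 0.82 on the log2 scale. BAM5, another beta-amylase, was at 7.70, 5.72 and 9.26 CPM in Col-0 against 38.1, 31.3 and 28.1 CPM in tpst (log2 2.098, SE 0.14, adjusted p = 1.26e-08). GPT2, which carries glucose 6-phosphate into plastids, rose from 134, 127 and 159 CPM to 370, 335 and 312 CPM.

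Cytosolic ribosomal proteins had 80 of 197 tested members higher and 1 lower (median 0.19). The share higher was 40.6%, beside 42.9% of all genes between 100 and 1000 CPM. Their transcripts summed to 49500 to 58070 CPM in Col-0 against 60390 to 63800 CPM in tpst. The count of higher members was 38 without tpst replicate 1 and 39 with the 6 libraries fitted alone, and 2 were lower without Col-0 replicate 3. In that last fit the log2 rise of RPS23A went from 0.478 to 0.328 and that of RPP0A from 0.44 to 0.236. Both calls were lost there, while the call of RPS9C was kept. Heat shock proteins gave 7 of 35 higher and none lower, with 4 higher and 1 lower without Col-0 replicate 2 and 1 lower without tpst replicate 3. Histones gave 2 of 26 higher and 1 lower, with 5 higher without Col-0 replicate 2 and 3 lower without Col-0 replicate 3.

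Genes of secondary products changed in both directions. Aliphatic glucosinolate synthesis, which also uses PAPS, had 13 of 20 genes higher and 2 lower (median 0.23). The share higher was 65.0%, beside 13.3% of all genes tested and 42.9% of all genes between 100 and 1000 CPM (median 0.136). Whether the genes of this pathway rose more than other genes of their level was not tested. CYP79F1, which commits methionine to this pathway, rose from 136 ± 11.9 to 204 ± 13.5 CPM, whereas its neighbour CYP79F2 fell from 55.1 ± 0.0382 to 34.7 ± 1.56 CPM. The oxygenase FMOGS-OX3 rose by 0.83 on the log2 scale. The sulfotransferase SOT17 rose by 0.22 and SOT18 was not called, at 0.19. Of 19 tested genes of anthocyanin and flavonol synthesis 7 rose, 5 fell and 7 were not called. The anthocyanin enzymes DFR (DFRA in the table), LDOX and UGT75C1 were among those that rose, DFR from 46.1 ± 6.52 to 94.97 ± 8.83 CPM and the others by 1.00 and 1.27 on the log2 scale, while CHS, the first enzyme, fell from 1036 to 817 CPM, the flavonol enzyme FLS1 fell by 0.68 and MYB12, the flavonol factor, by 1.64. Lipid transfer proteins had 7 of 10 higher, with LTP1 from 498, 528 and 563 CPM to 963, 828 and 942 CPM, and 1 lower. This family was not compared with other genes of its level either. LTP2 rose by 1.13, a call lost when the 6 libraries were fitted alone.

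**Figure D4:**
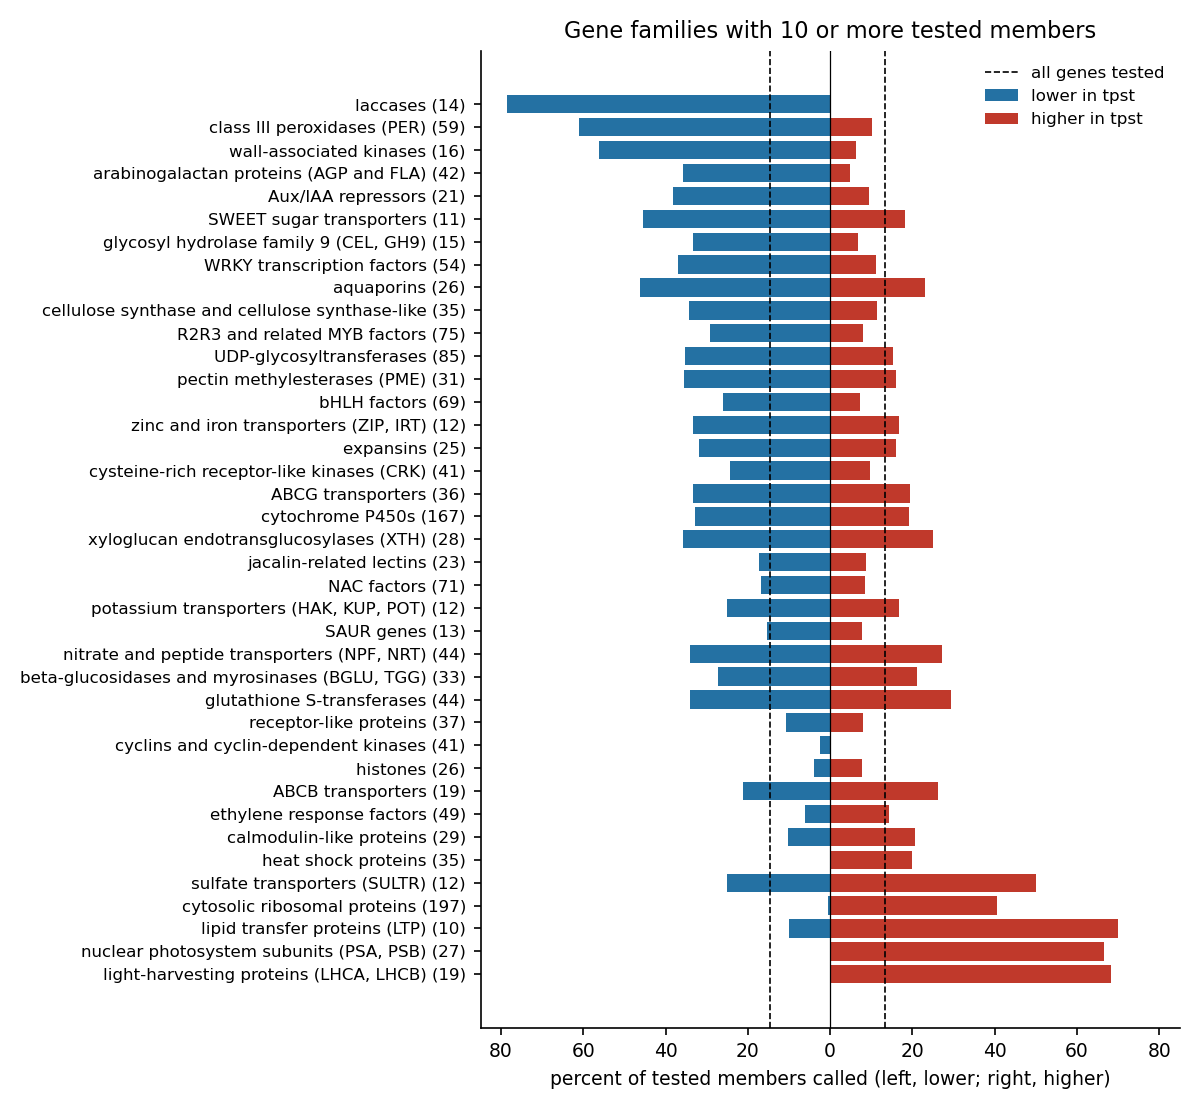
Percent of the tested members of each gene family that were lower (blue, left) or higher (red, right) in tpst, for families with 10 or more tested members, whose numbers stand in parentheses. Dashed lines mark the 14.6% and 13.3% of all genes tested, which are not matched for level. Laccases, peroxidases and wall-associated kinases lie at the lower end and photosystem, light-harvesting and ribosomal proteins at the higher end.

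Among called genes with at least 10 CPM in Col-0, the largest falls included QQS, TLP18.3, TIP2-3 and AGP22 of the lists and families above, and other genes. QQS (AT3G30720), an orphan gene of Arabidopsis whose reduced expression is known to raise leaf starch, was at 33.1, 36.9 and 31.6 CPM in Col-0 against 0.229, 0.450 and 0.253 CPM in tpst (log2 -6.71, SE 0.24, adjusted p = 2.98e-16). In the PSK-treated tpst libraries it stayed between 0.230 and 1.11 CPM. TLP18.3 (AT1G54780), a thylakoid phosphatase of photosystem II repair, was at 185, 172 and 136 CPM in Col-0 against 12.3, 14.4 and 12.8 CPM in tpst (log2 -3.64, SE 0.10, adjusted p = 7.38e-16), and at 10.9 to 14.7 CPM with PSK. In TAIR10, QQS lies on chr3:12349047-12349933 and TLP18.3 on chr1:20439383-20441159, both protein coding. The neighbouring genes AT5G46890 and AT5G46900, annotated as lipid transfer-like proteins, fell from 21.6 ± 3.45 and 22.4 ± 2.09 CPM to 1.29 ± 0.441 and 1.17 ± 0.608 CPM. As near relatives side by side they may share reads, which the sources used here do not settle. UGT91A1, a glycosyltransferase, fell by 3.29, AT3G61400, an ACC oxidase homolog, by 3.23 and AT4G33720 by 4.15 on the log2 scale. In the PSK-treated tpst libraries TIP2-3 was at 3.838 to 6.835 CPM, UGT91A1 at 2.635 to 5.066 CPM and AGP22 at 3.675 to 5.354 CPM. Each of these ranges lay above every untreated tpst library and below every Col-0 library. With PSK, AT3G61400 and AT4G33720 overlapped their levels in untreated tpst.

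Other genes were near silence in Col-0 and read in tpst. AT4G29200, annotated as a beta-galactosidase related protein on chr4:14398054-14400198, had 4 counts in all of Col-0 and 2774 in all of tpst, or 0, 0.171 and 0 CPM against 40.7, 42.6 and 42.7 CPM. Its level was 41.0 to 45.8 CPM in the PSK-treated tpst libraries. AT2G01422, a non-coding RNA gene on chr2:183940-184734, had 1 count against 622, a ratio of 682 with a 95% interval of 122 to 2.7e+04 for counting error only. AT1G64795, a protein-coding gene with no description on chr1:24082579-24082848, had 0 counts against 180, which makes it at least 65.8-fold higher by a floor of 3 counts over the group. Its levels in tpst were 2.71, 2.74 and 2.73 CPM. For these genes a fitted fold change depends on how 0 is handled, so none is given. Another 4 genes, named after their values were seen, rose by 3 or more on the log2 scale, AT1G75945 by 5.53, AT2G06002 by 4.33, AT3G05955 by 4.14 and UMAMIT36 by 3.43. They did not meet the rule for the largest rises, at least 10 CPM with separated libraries, and their levels are not given here.

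The next largest rises among genes of at least 10 CPM in tpst were smaller. AKR4C9, a chloroplast aldo-keto reductase that clears reactive aldehydes, rose from 2.21, 1.41 and 1.46 CPM to 12.9, 10.2 and 10.2 CPM (log2 2.72, SE 0.19). CORI3, a cystine lyase, went from 61.1, 51.2 and 62.8 CPM to 279, 250 and 251 CPM (log2 2.15, SE 0.07, adjusted p = 9.33e-15). LOX2, the lipoxygenase that starts jasmonate synthesis, went from 381, 336 and 446 CPM to 1162, 1052 and 1154 CPM (log2 1.53, SE 0.09, adjusted p = 4.97e-08). COR413IM1, TRX8, AT1G55880, AT3G15650 and the non-coding AT1G67105 rose by 1.96 to 2.08 on the log2 scale. The vicilin-like AT4G36700 also rose, by 2.00, but its Col-0 values of 2.16, 1.11 and 6.75 CPM were spread and its call was lost in 5 of 14 alternatives. The metallothionein MT2B was at 822, 888 and 398 CPM in Col-0 against 1584, 1303 and 1359 CPM in tpst, with Col-0 replicate 3 the low value, and its call was lost without tpst replicate 1, without tpst replicate 3 and with the 6 libraries alone.

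**Figure D5:**
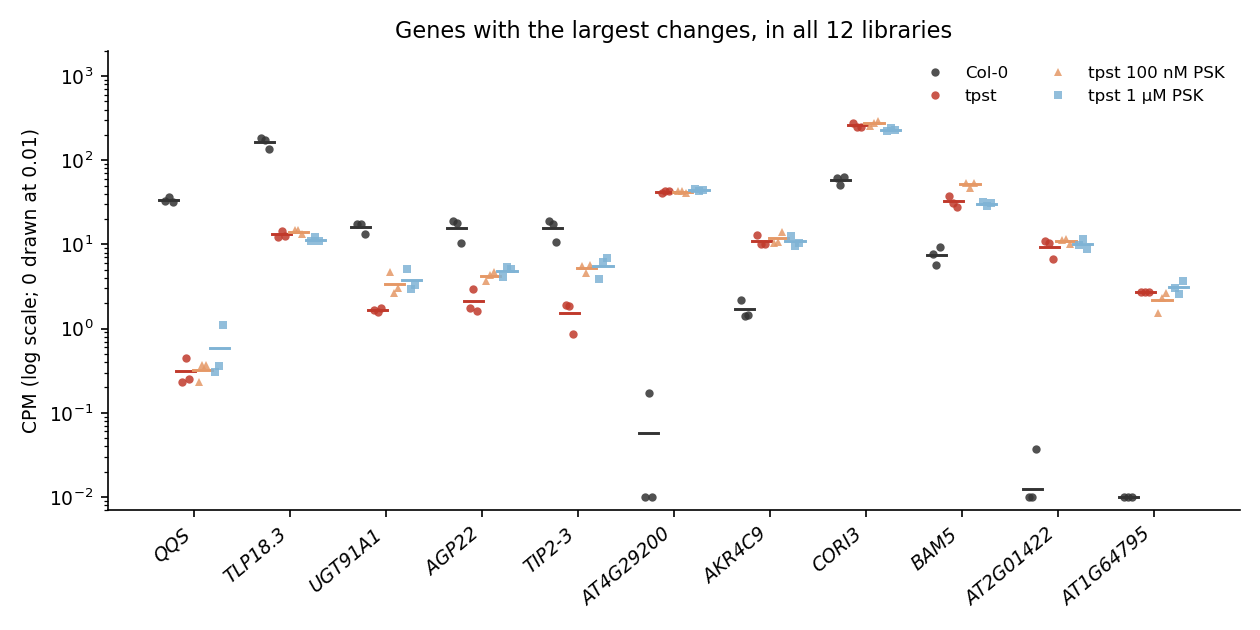
Level in CPM, on a log axis with 0 drawn at 0.01, of 11 genes with large changes in all 12 libraries, by group (Col-0, untreated tpst, and tpst with 100 nM or 1 µM PSK), with bars at the group means. The Col-0 points stand apart from all tpst points for each gene, and QQS, TLP18.3 and AT4G29200 keep their tpst level in the PSK-treated libraries.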

How the data were processed

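Poly(A) RNA of pooled whole seedlings was sequenced as paired reads. The authors trimmed reads with fastp, aligned them with HISAT2 2.0.5 to TAIR10 and made gene counts with featureCounts 1.5.0-p3. The deposited table holds raw counts and FPKM per gene for 12 libraries, and the authors' FPKM were scaled by one constant per library. Strand and multimapping settings are not given in the sources used here, so antisense partners and near copies may share reads. A label also mentions separated shoot and root tissue, although the samples are named as seedlings.

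Counts were fitted with edgeR 4.0.16 (quasi-likelihood, robust, TMM, filterByExpr, R 4.3.3) over all 12 libraries with 8 residual degrees of freedom. All groups were given one estimate of the spread, and whether their spread was equal was not tested. The chi-square per degree of freedom was 2.92 to 4.92 between libraries of a PSK-treated group, against up to 16.1 within Col-0. Adjusted p-values are Benjamini-Hochberg over 20506 genes, and SE is the log2 difference divided by the root of its F statistic. CPM are counts scaled to the TMM-corrected library size. With 3 against 3 libraries an exact permutation test cannot go below 0.1, so no gene was tested that way.

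The comparison and the gene lists were chosen with earlier results of these data known. Named genes are every tested gene of the sulfation lists, the 4 called genes with the largest change in each other list or family with at least 1 CPM, the 10 largest falls and rises with separated libraries and at least 10 CPM, the 10 most abundant called genes at 2-fold, and genes with 3 counts or fewer in one group and at least 100 in the other. Other list members were named for their known role after their values were seen, and not every gene the rule picks is described here. Alternatives were DESeq2 1.42.0 and its size factors, upper-quartile factors, no filter, the 6 libraries alone, the replicate number as a block, limma 3.58.1 on log2(FPKM + 1) and log2(FPKM + 0.1), and leaving out each library. Coordinates are of TAIR10, and sequences were read from RefSeq TAIR10.1.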

Additional observations from a re-analysis of the deposited data

How the results depend on the processing

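Over the 14 alternatives, 77.2% to 99.6% of the called genes kept their call and direction. The median log2 difference of all genes stayed between -0.0162 and 0.0138. The library scaling in each of them centres the bulk of genes near 0, so this median cannot show stability. TMM factors were 1.043 to 1.075 in Col-0 and 0.982 to 0.992 in untreated tpst. With upper-quartile factors 3226 genes were lower and 2427 higher. With limma on log2(FPKM + 1), 436 genes were lower and 98 higher at 2-fold, and with log2(FPKM + 0.1) 871 and 189, against 1115 and 203. These fits differ from edgeR in method, unit and filter as well, and the part of each was not tested. With the 6 compared libraries fitted alone, 2770 genes were lower and 2188 higher, and 1095 and 181 at 2-fold. Of the called genes tested in that fit, 85.5% kept their call and direction. With each library left out in turn, 2421 to 2978 genes were lower and 2152 to 2822 higher, and at 2-fold 975 to 1137 were lower and 183 to 221 higher. The log2 difference of TPST ranged from -1.25 to -1.12 in these fits and was -0.99 with log2(FPKM + 1).

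Same-numbered libraries of the 2 genotypes did not deviate together (r = 0.06, -0.023 and 0.029), so the numbers do not pair the samples. With the replicate block 2999 genes were lower and 2775 higher, and 1109 and 206 at 2-fold, with TPST at -1.19.

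Among the named genes the sign turned only for genes that were not called. Over the fits that each leave out one library, the log2 difference ranged from -0.141 to 0.146 for APK3, -0.322 to 0.17 for APK4, -0.039 to 0.173 for PSY1, -0.078 to 0.401 for PSY2, -0.508 to 0.062 for RGF8 and -0.147 to 0.081 for CIF1. For the receptors it ranged from -0.148 to 0.084 for PSKR1, -0.02 to 0.071 for PSKR2, -0.09 to 0.079 for SERK1 and -0.026 to 0.175 for SERK4. CIF1 was at 0.0 with no filter and at 0.003 with the replicate block. Of the remaining values for named genes 4148 kept their side of the threshold, 180 lost it and 5 gained it, and of the list and family counts 1856 stayed within 1.5 times and 160 did not.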
